A study of Mus musculus with 6 samples.

Results

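The families of miR-10, miR-99 and miR-125 are deeply conserved animal microRNAs, of which those of miR-10 and miR-99 are relatives. The assays described here are miR-10a, miR-10b, miR-99a, miR-99b, miR-125a-3p, miR-125a-5p and miR-125b-5p, chosen by name, 7 of the 517 microRNA assays read. They were measured in whole aortas of male mice by TaqMan PCR, a reverse-transcription PCR with 1 labelled probe per microRNA. In the Dicer_KO group (LysM-Cre/Dicerflox/flox/Apoe–/–, 3 aortas), Cre from the lysozyme M locus, active in macrophages, monocytes and neutrophils, acts on floxed copies of Dicer. The Dicer_WT group (LysM-Cre/Dicerwt/wt/Apoe–/–, 3 aortas) consisted of littermates with the same Cre and intact Dicer. All 6 mice lacked Apoe, which makes mice prone to atherosclerosis, and ate a diet with 21% crude fat for 12 weeks from 6 to 8 weeks of age. The labels give macrophage as cell type, but the RNA was that of the aorta, which also holds cells without this Cre. No assay reads Dicer mRNA, so the genotypes were not checked in the data. With bulk RNA, fewer cells of a type and less RNA per cell cannot be told apart.

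Dicer cuts the hairpin precursor of a microRNA into a duplex, of which 1 strand usually stays bound to Argonaute. The bound strand pairs with target mRNAs mainly through its seed, bases 2 to 8. In mammals the genes for miR-10a and miR-10b lie among the Hox genes, while those for the miR-99 and miR-125 families lie in clusters, each with a let-7 gene between them. In macrophages miR-10a has been linked to oxidative metabolism through the corepressor Lcor, and in endothelium it restrains inflammatory signalling. The miR-99 family, which includes miR-100, represses mTOR. miR-125a-5p dampens inflammatory responses of macrophages, and miR-125b-5p lowers Irf4 in mouse macrophages and raises their responsiveness.

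The mature sequences are shown because the seed sorts the assays into families and because close relatives differ in single bases. They are RefSeq's mouse sequences (GRCm38.p6), 5′ to 3′, with the seed in capitals. All 7 members matched, and miR-100, a relative of miR-99a, is added.

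miR-10a: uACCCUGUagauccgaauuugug
miR-10b: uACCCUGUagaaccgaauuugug
miR-99a: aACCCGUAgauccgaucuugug
miR-99b: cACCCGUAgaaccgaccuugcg
miR-100: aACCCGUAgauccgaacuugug
miR-125a-5p: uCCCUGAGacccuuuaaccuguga
miR-125b-5p: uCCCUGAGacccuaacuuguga
miR-125a-3p: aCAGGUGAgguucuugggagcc

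Counted from the 5′ end, miR-10a and miR-10b differ by 1 base, U12A, outside the seed. miR-99a and miR-100 likewise differ by 1 base, U16A. miR-99a and miR-99b differ by 4 bases, A1C, U11A, U16C and U21C, and keep the same seed. The seeds of the miR-10 and miR-99 families are not the same, but miR-10a and miR-99a share an unbroken run of 10 bases, GUAGAUCCGA. miR-125a-5p and miR-125b-5p have the same first 13 bases. miR-125a-3p is the other arm of the miR-125a hairpin and has a seed of its own. How far each probe tells such relatives apart was not tested.

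The genes are on the plus strand in each case. Mature miR-10a is at chr11:96317186-96317208, within the span of Hoxb3 and beside Hoxb4. miR-10b is at chr2:74726074-74726096, within the span of Hoxd3 and Hoxd4. miR-99b, at chr17:17830194-17830215, and both arms of miR-125a, at chr17:17830817-17830840 for the 5p arm and chr17:17830855-17830876 for the 3p arm, lie with let-7e in the span of Spaca6. The starts of miR-99b and miR-125a-5p are 623 bases apart. miR-99a, at chr16:77598940-77598961, has let-7c-1 as its next gene and miR-125b-2 after it. miR-125b-5p is made from 2 genes with the same mature sequence, one at chr16:77646279-77646300 and the other at chr9:41581940-41581961 in the span of Mir100hg, which also holds miR-100.

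Each well was recorded as its threshold cycle (Ct), so that a lower Ct stands for more RNA and a step of 1 cycle for about 2 times as much, and wells without product are listed at 40. Below Ct 35, taken as detected, lay 349 to 366 assays in Dicer_KO and 374 to 378 in Dicer_WT aortas. Relative quantities are linear, made by the authors relative to the mean Ct of reference RNAs (U6, snoRNA135 and snoRNA202 on the card that held all 7 members) with the geometric mean of Dicer_WT at 1. Log2 differences are Dicer_KO minus Dicer_WT on that scale. They were tested with limma across 377 assays, with p-values adjusted by Benjamini-Hochberg. The replicates are biological per the labels, and each aorta was counted as 1 animal.

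Of the 7 members, 6 gave product in all 6 aortas and entered the test, and miR-99a in none. Over the 6, 0 were called lower and 0 higher, against 1.86% of all 377 assays called lower and 0% called higher. At an unadjusted limma p under 0.05, 1 of the 6 was lower (miR-99b) and 0 higher, against 24.4% and 2.39% of all assays. All 6 had a log2 fold change below 0, as did 78.2% of all assays. Their median was -0.35, beside -0.42 over all assays. Adjusted p-values ranged from 0.0996 for miR-99b to 0.810 for miR-10b. Within this set, miR-99b, miR-10a and miR-125a-3p lay lower than the median assay of the array, and miR-125a-5p, miR-125b-5p and miR-10b lay higher.

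**Figure D1:**
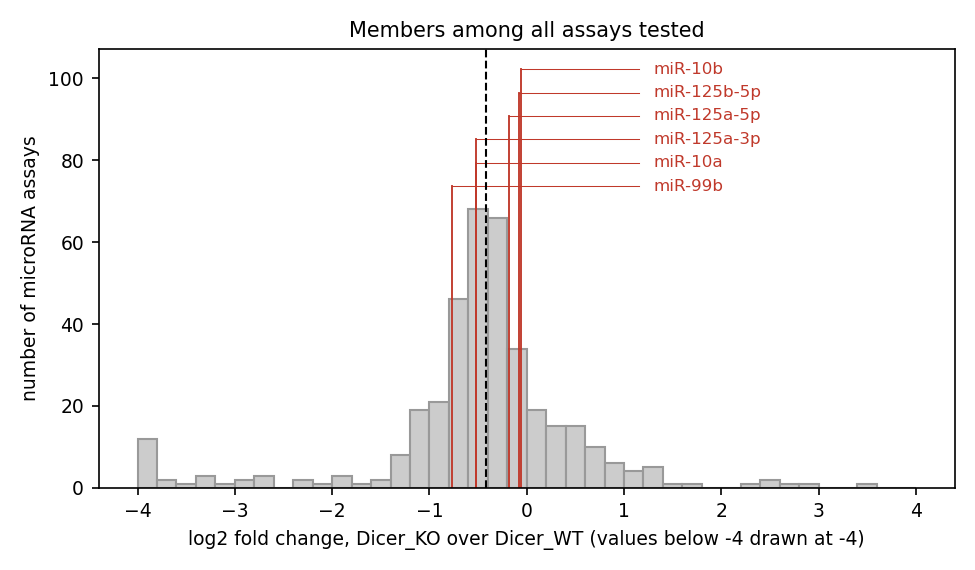
Histogram of the log2 fold change, Dicer_KO over Dicer_WT, of 377 microRNA assays (x axis, log2 units, dashed line at their median of -0.42, y axis, number of assays). The 6 detected members are marked in red and stand between -0.77 and -0.05, on both sides of that median.

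miR-10a, the member tied to macrophage metabolism, had relative quantities of 0.849, 0.755 and 0.526 in Dicer_KO aortas, against 1.23, 0.871 and 0.933 in Dicer_WT aortas. Every Dicer_KO aorta lay below every Dicer_WT aorta, but the highest Dicer_KO value, 0.849, was close to the lowest Dicer_WT value, 0.871. Ct averaged 22.4 ± 0.464 in Dicer_KO and 21.7 ± 0.440 in Dicer_WT aortas (SD, n = 3 each). The log2 fold change was -0.52 ± 0.260 (SE, limma adjusted p = 0.226), with a 95% interval of -1.16 to 0.12. It was -0.32 without Dicer_KO replicate 3, the lowest aorta. Of all assays, 39.3% had a lower log2 fold change, so the value of miR-10a lay near the middle of the array.

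miR-10b, which has the same seed, gave relative quantities of 0.923, 1.03 and 0.936 in Dicer_KO and 0.954, 0.936 and 1.12 in Dicer_WT aortas. These ranges overlapped throughout. Its log2 fold change was -0.05 ± 0.170 (SE, limma adjusted p = 0.810), with a 95% interval of -0.47 to 0.36. The difference between miR-10a and miR-10b within an aorta was 0.468 lower on the log2 scale in Dicer_KO than in Dicer_WT aortas. The exact permutation p was 0.2 (two-sided, adjusted p = 0.4 over the 4 pairs compared), and the groups overlapped. With 3 aortas against 3 the smallest possible p is 0.1, so no pair could reach 0.05. The difference between miR-10a and miR-10b was -0.28 without Dicer_WT replicate 1 and -0.29 without Dicer_KO replicate 3.

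Of the other arms, miR-10b* was detected in every aorta, and its log2 difference was -0.36 ± 0.184 (SE, limma adjusted p = 0.229). Its 3 Dicer_KO aortas, at relative quantities of 0.780, 0.897 and 0.673, lay below the Dicer_WT aortas at 1.05, 0.942 and 1.01. miR-10a* was below Ct 35 in 1 of 6 aortas only, Dicer_KO replicate 1, at Ct 30.4. The other Dicer_KO aortas were at 40, and the Dicer_WT aortas at 40, 37.1 and 40. The authors' deposited table gives miR-10a* a fold of 84.1, Dicer_KO over Dicer_WT, which rests on that single well. It was not tested here.

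**Figure D2:**
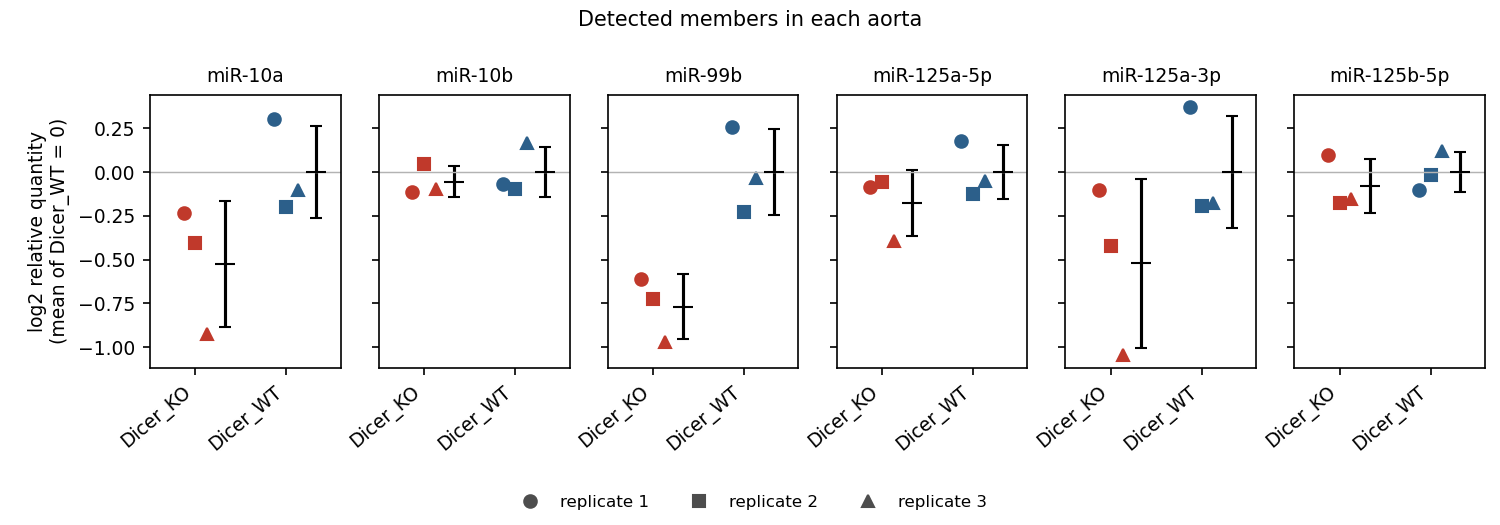
Log2 relative quantity (y axis, mean of Dicer_WT at 0) of the 6 detected members in each aorta, Dicer_KO in red and Dicer_WT in blue, with a symbol per replicate number and the mean ± SD (n = 3) in black. The groups part for miR-10a and miR-99b and overlap for the other 4.

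miR-99b, of the mTOR-repressing family, stood furthest below 0. Relative quantities were 0.655, 0.605 and 0.510 in Dicer_KO aortas, against 1.20, 0.855 and 0.977 in Dicer_WT aortas. The groups did not overlap, and the gap between them, from 0.655 to 0.855, was wider than the range of the Dicer_KO aortas. Non-overlap with Dicer_KO lower was found for 2 of the 6 members (miR-10a and miR-99b), beside 32.6% of all assays tested. Ct averaged 19.3 ± 0.305 in Dicer_KO and 18.3 ± 0.411 in Dicer_WT aortas (SD, n = 3 each). The log2 fold change was -0.77 ± 0.209 (SE), a fold of 0.587, with a 95% interval of -1.28 to -0.25 that is not adjusted for the number of assays. Its limma adjusted p of 0.0996 missed the threshold of 0.05. With an intensity trend and robust settings in limma's variance step it passed (adjusted p = 0.0499), the only one of 19 alternatives in which any member did.

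Of the other assays of the Spaca6 cluster, miR-99b* and let-7e had log2 fold changes close to that of miR-99b, while both arms of miR-125a were less lowered. The passenger strand miR-99b* had relative quantities of 0.752, 0.526 and 0.478 in Dicer_KO and 1.06, 0.919 and 1.03 in Dicer_WT aortas. The log2 fold change of miR-99b* was -0.80 ± 0.228 (SE, limma adjusted p = 0.101). let-7e, of the let-7 family of growth-restraining microRNAs, had -0.76 ± 0.308 (adjusted p = 0.186). In let-7e the groups did not overlap, but Dicer_KO replicate 1 at 0.907 stood just below the Dicer_WT aortas at 1.13, 0.928 and 0.950. The other Dicer_KO aortas were at 0.507 and 0.450.

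miR-125a-5p, from the far end of the same cluster, had relative quantities of 0.944, 0.960 and 0.761 in Dicer_KO and 1.13, 0.917 and 0.966 in Dicer_WT aortas, which overlapped. Its log2 fold change was -0.18 ± 0.190 (SE, limma adjusted p = 0.499), with a 95% interval of -0.65 to 0.29, and it was -0.07 without Dicer_KO replicate 3 and -0.09 without Dicer_WT replicate 1. Since miR-99b and miR-125a-5p were read on 1 card, their difference in an aorta needs no reference RNA. With the Dicer_WT mean at 0, this log2 difference was -0.53, -0.67 and -0.58 in Dicer_KO aortas, against 0.084, -0.10 and 0.016 in Dicer_WT aortas. It averaged -0.59 ± 0.0704 in Dicer_KO and 0 ± 0.0936 in Dicer_WT aortas (SD, n = 3 each), a difference larger than the spread in either group. The exact permutation p was 0.1, the smallest that 3 against 3 allow, so the threshold could not be reached (adjusted p = 0.4 over 4 pairs). Leaving out any 1 aorta gave -0.64 to -0.55.

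**Figure D3:**
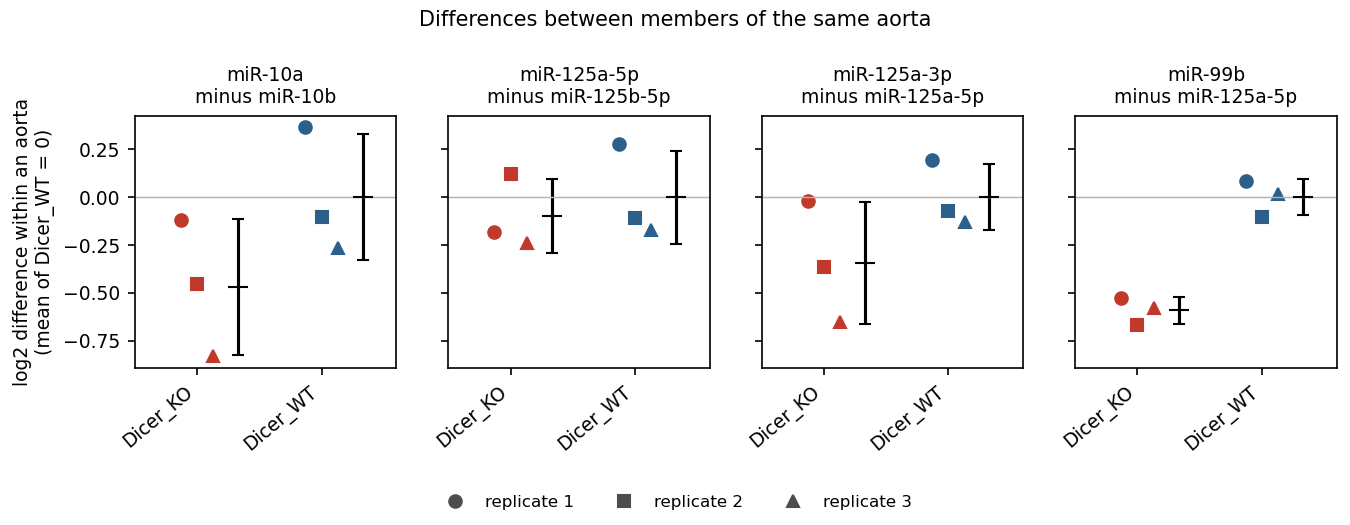
Log2 difference between members of the same aorta (y axis, mean of Dicer_WT at 0) for the 4 pairs compared, Dicer_KO in red and Dicer_WT in blue, a symbol per replicate number, with mean ± SD (n = 3) in black. miR-99b minus miR-125a-5p is the pair whose groups part, with Dicer_KO aortas from -0.67 to -0.53.

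miR-99a and miR-100, which share the seed of miR-99b, were at Ct 40 in every aorta of both groups, so they have no level here and no fold. The authors' deposited table nevertheless gives each a fold of 1.17, Dicer_KO over Dicer_WT. All 64 microRNA assays of that card without product in any aorta have this same value, which is the ratio of the reference RNAs and not a measurement of miR-99a. The planned comparisons of miR-99a with miR-99b and with miR-125b-5p therefore gave no value. In contrast, miR-125b-5p, whose 2 genes lie in the clusters of miR-99a and of miR-100, was detected at Ct 16.7 to 17.4 in all 6 aortas. let-7c, whose genes include the neighbour of miR-99a, averaged Ct 18.7 ± 0.576 in Dicer_KO and 17.8 ± 0.424 in Dicer_WT aortas (SD, n = 3 each). Whether the assays of miR-99a and miR-100 worked on these cards was not tested.

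miR-125b-5p had relative quantities of 1.07, 0.883 and 0.898 in Dicer_KO and 0.931, 0.988 and 1.09 in Dicer_WT aortas. The ranges overlapped, with a log2 difference of -0.08 ± 0.175 (SE, limma adjusted p = 0.739) and a 95% interval of -0.51 to 0.35. Leaving out 1 aorta gave -0.17 (replicate 1 of Dicer_KO) to -0.02 (replicate 3 of Dicer_WT). miR-125a-5p and miR-125b-5p, of the same seed, had a difference within an aorta that was -0.099 on the log2 scale, Dicer_KO minus Dicer_WT (exact permutation p = 0.5, adjusted p = 0.5). That value turned to 0.041 without Dicer_WT replicate 1.

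miR-125a-3p, the arm opposite miR-125a-5p, was read at later cycles, with a mean Ct of 28.4 ± 0.592 in Dicer_KO and 27.6 ± 0.502 in Dicer_WT aortas (SD, n = 3 each). Its relative quantities were 0.933, 0.747 and 0.485 in Dicer_KO and 1.29, 0.874 and 0.885 in Dicer_WT aortas. Dicer_KO replicate 1 lay inside the Dicer_WT range and Dicer_KO replicate 3 lowest. The log2 fold change was -0.52 ± 0.314 (SE, limma adjusted p = 0.279), with a 95% interval of -1.29 to 0.25, and it was -0.26 without Dicer_KO replicate 3. Within an aorta, miR-125a-3p minus miR-125a-5p was 0.34 lower in Dicer_KO than in Dicer_WT aortas on the log2 scale (exact permutation p = 0.3, adjusted p = 0.4). Leaving out replicate 3 of the Dicer_KO group gave -0.19, and leaving out its replicate 1 gave -0.51.

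The other arms of the miR-125b hairpins were read by 2 assays, whose names do not say which hairpin each reads. miR-125b* had a log2 difference of -0.48 ± 0.307 and miR-125b-3p of -0.47 ± 0.376 (SE, limma adjusted p = 0.303 and 0.383). In both, Dicer_KO replicate 3 was the lowest aorta, with relative quantities of 0.495 and 0.429. Set against the main strand in the same aorta, the other arm was lower in Dicer_KO than in Dicer_WT aortas by 0.31 for miR-10b*, 0.34 for miR-125a-3p, 0.40 for miR-125b* and 0.39 for miR-125b-3p on the log2 scale. For miR-99b* this difference was -0.03. The groups overlapped in all of these except miR-10b*. With the Dicer_WT mean at 0, miR-125a-3p, miR-125b* and miR-125b-3p were at -0.65, -0.86 and -1.07 in Dicer_KO replicate 3. In Dicer_KO replicate 1 they were at -0.02, -0.12 and -0.08. The differences from the main strand, apart from that of miR-125a-3p, were not tested, and the assays marked with a star were on the other card.

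**Figure D4:**
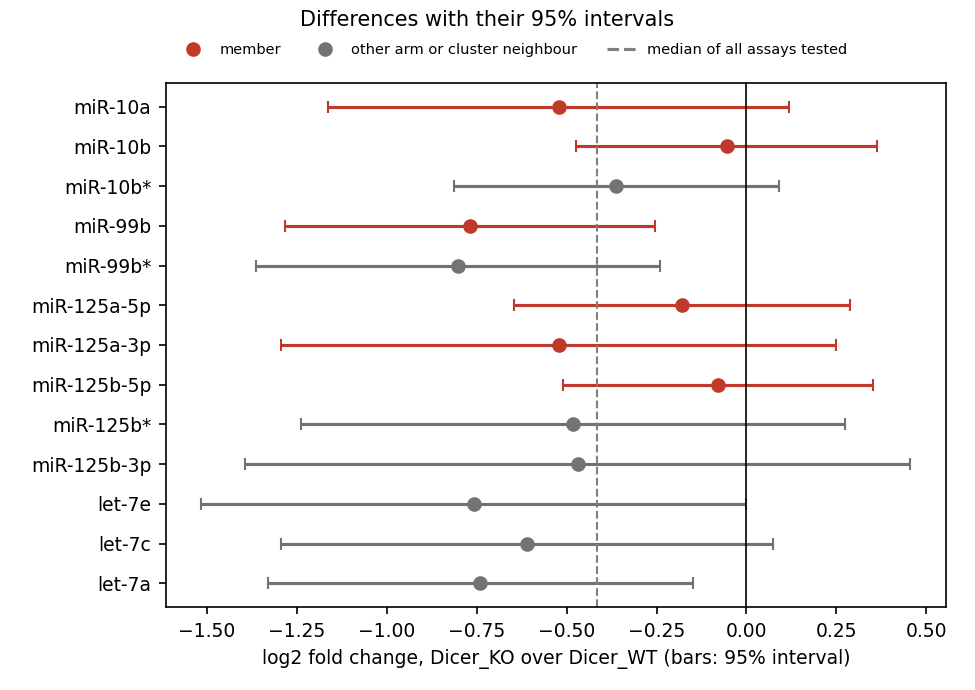
Log2 fold change, Dicer_KO over Dicer_WT (x axis, log2 units), with limma's unadjusted 95% interval, of the 6 detected members in red and of their other arms and let-7 neighbours in grey, 3 aortas against 3. The dashed line is the median of all assays tested at -0.42, which lies inside the interval of every assay drawn.

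Since all assays of a card share the reference RNAs, the sign of several members followed the choice of reference. U87 and Y1, small RNAs that are also made without Dicer, were themselves lower in Dicer_KO aortas. On the members' card their log2 differences were -0.47 and -0.55 on the authors' scale (exact permutation p = 0.1 each, the smallest possible). The authors' reference RNAs were at 0.16 (U6), -0.07 (snoRNA135) and -0.09 (snoRNA202). Relative to U87 and Y1, the median of all assays was 0.16, and it was 0.0032 after quantile normalization and -0.12 after centring on the mean. With these 3 settings miR-10b, miR-125a-5p and miR-125b-5p turned above 0. miR-99b stayed lowest of the 6 throughout, at -0.26 relative to U87 and Y1, -0.47 after quantile normalization and -0.48 after centring. miR-10a was at -0.01 relative to U87 and Y1 and -0.07 after quantile normalization.

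**Figure D5:**
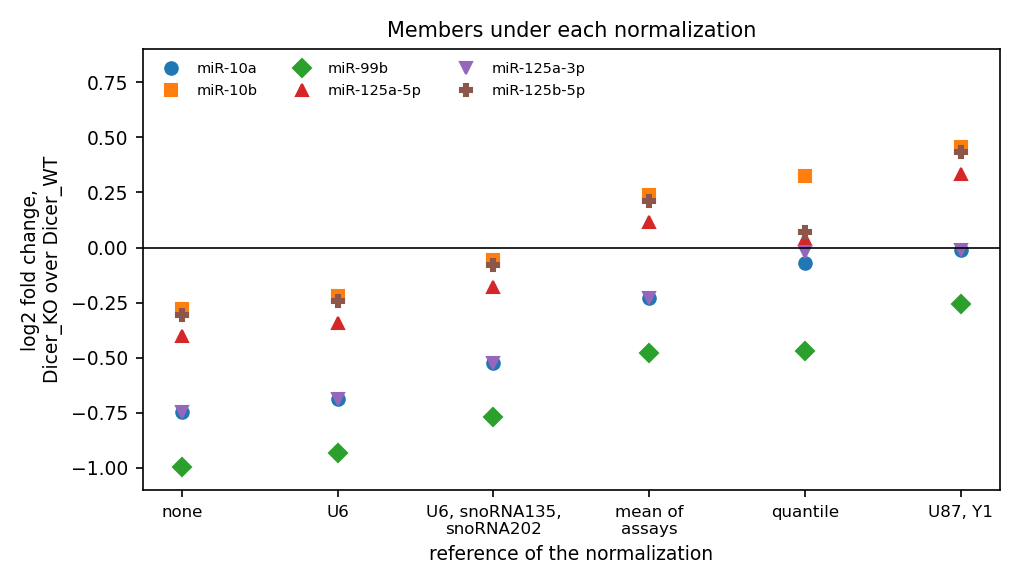
Log2 fold change, Dicer_KO over Dicer_WT (y axis), of the 6 detected members under 6 ways of normalization (x axis, the reference used). The members move by a common amount between the settings other than quantile normalization, which moves them unequally, and miR-99b is lowest at each, from -0.99 without normalization to -0.26 relative to U87 and Y1.

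Each member was also set against the median of the 330 assays detected in all aortas. These assays lie on both cards, each scaled to its own reference RNAs, so the reference RNAs do not cancel in full. That median itself lay 0.43 lower in Dicer_KO than in Dicer_WT aortas on the authors' log2 scale (exact permutation p = 0.1, the smallest possible). Relative to it, the difference between Dicer_KO and Dicer_WT aortas was 0.38 for miR-10b, 0.35 for miR-125b-5p and 0.25 for miR-125a-5p. It was -0.09 for miR-10a, -0.09 for miR-125a-3p and -0.34 for miR-99b. miR-125a-5p was the only member whose groups did not overlap, with Dicer_KO aortas at 0.14, 0.30 and 0.32 and Dicer_WT aortas at 0.069, -0.20 and 0.13 (exact permutation p = 0.1, adjusted p = 0.3 over the 6 members). On this scale 16.4% of the 330 assays did not overlap with Dicer_KO higher and 13.6% with Dicer_KO lower. With the median taken over assays of the same card only, the reference RNAs cancel, but the set of assays differs too. Every member's value was then lower, at 0.15 for miR-10b, 0.13 for miR-125b-5p, 0.030 for miR-125a-5p, -0.31 for miR-10a, -0.31 for miR-125a-3p and -0.56 for miR-99b. Mean Ct of the reference RNAs was higher in Dicer_KO aortas by 0.23 on this card and by 0.18 on the other, so these offsets were much alike. How far the set of assays made the shift was not tested.

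Likeness of profiles was taken as the root mean square difference of log2 values over the 6 aortas, after each assay was centred on its own mean, among 324 other assays detected in every aorta. miR-10a was nearest to miR-199a-3p (0.108), miR-320 (0.123) and miR-16 (0.145), beside a median of 0.33 over all candidates. Among the members themselves miR-125a-3p was nearer still to miR-10a, at 0.0855. miR-10b was nearest to miR-29c (0.0908), miR-708 (0.136) and miR-760 (0.136). miR-99b was nearest to miR-467c (0.0969), miR-345-5p (0.117) and miR-103 (0.120), which had log2 fold changes of -0.81, -0.92 and -0.78 and were not called. For miR-125a-5p these were miR-101a (0.0833), miR-30a (0.0914) and miR-455* (0.0926). miR-125b-5p had miR-467b (0.115), miR-29a (0.122) and miR-365 (0.126) nearest, and miR-125a-3p had miR-199a-3p (0.102), miR-125b* (0.121) and miR-186 (0.128). An aorta's shared offset enters all these profiles, so near profiles are a description only.

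Markers of the tissue were present. All 7 myeloid markers were detected, as were all 4 endothelial markers and all 5 of a muscle list that joined smooth muscle miR-143 and miR-145 with miR-1, miR-133a and miR-133b, which are foremost microRNAs of striated muscle. Of the 7 myeloid markers 0 passed the test. All 7 were below 0, as were 78.2% of all assays, with a median log2 fold change of -0.93. They were not alike. The groups overlapped for miR-142-3p at -0.07 and miR-142-5p at -0.09. They did not overlap, with Dicer_KO lower, for miR-511 at -1.99, miR-223 at -1.66, miR-342-3p at -1.33, miR-146a at -0.93 and miR-155 at -0.80. Such non-overlap was found for 32.6% of all assays tested. The summed relative quantity of the 7 myeloid markers, each at 1 in Dicer_WT, was 3.38 to 5.06 in Dicer_KO and 5.82 to 8.88 in Dicer_WT aortas. For the muscle list the sum was 3.01 to 5.05 in Dicer_KO and 4.89 to 5.10 in Dicer_WT aortas, with a median log2 fold change of -0.32 and 0 of 5 called. In the muscle list, miR-143 at -0.76 and miR-145 at -0.42 had every Dicer_KO aorta below every Dicer_WT aorta, beside 32.6% of all assays. The groups overlapped for miR-1 at -0.07, miR-133a at -0.32 and miR-133b at -0.24. Of the 4 endothelial markers 0 were called, and the median log2 fold change was -0.29. Their sum was 3.17 to 4.19 in Dicer_KO and 3.75 to 4.42 in Dicer_WT aortas. The groups did not overlap, with Dicer_KO lower, for miR-221 at -0.98 and miR-222 at -0.58, beside the same 32.6% of all assays. They overlapped for miR-126-3p at -0.01 and miR-126-5p at 0.47. Erythroid miR-451 and miR-486 summed to 4.10 to 6.28 in Dicer_KO and 1.00 to 3.60 in Dicer_WT aortas, with 0 of 2 called. The groups did not overlap, with Dicer_KO higher, for miR-451 at 1.36, as for 2.39% of all assays tested. They overlapped for miR-486 at 1.12. Of the remaining markers (2 lymphoid, 4 epithelial, 2 neuronal and hepatocyte miR-122) 0 were called, with median log2 fold changes of 0.16, -0.23, -0.66 and 1.36. These lists were not uniform. Lymphoid miR-150 was at 0.53 and miR-181a at -0.21. Neuronal miR-124 was at -1.30 ± 1.80 (SE), detected in 2 of 3 Dicer_KO aortas, and miR-9 at -0.02. Epithelial miR-205 was at 0.86, against -0.47 for miR-200c, -0.27 for miR-141 and -0.18 for miR-200b. The part of these differences in the values of miR-10a and miR-99b was not tested.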

How the data were processed

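Whole-aorta RNA of 6 mice, 3 per genotype, was reverse-transcribed, preamplified and read with FAM probes, per the labels' protocols. The software, threshold and array version are not stated in the sources used here, and no batch is named. The authors deposited Ct values, relative quantities as a linear ratio, and fold changes as a linear ratio. Of the Ct cells, 5 had a decimal comma, read as a point. The deposited relative quantities equalled the reference RNAs' mean Ct minus the assay's Ct to within 5.22e-06 on the log2 scale. The deposited fold equalled the ratio of arithmetic means for all 7 members (tolerance 1e-04).

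Wells at or above Ct 35 were set to 35, and assays below it in at least 2 of 3 aortas of a group were tested, 377 of 517, without control RNAs. limma 3.58.1 in R 4.3.3 was used (lmFit, eBayes, two-sided, Benjamini-Hochberg over all 377, threshold 0.05), and was tested on simulated data. Differences between members were compared by exact two-sided permutation tests over aortas, and their precision is limited by the number of aortas. Text names the members, their other arms, cluster neighbours, Hox-cluster microRNAs and the 3 nearest profiles of each, and markers by list. Members and lists were chosen with earlier results of these data known. Alternatives covered normalization, detection limit, undetected wells, filters, variance moderation, single aortas left out and a replicate block.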

Additional observations from a re-analysis of the deposited data

How the results depend on the processing

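With 0 members called, 18 of 19 alternatives gave 0 and an intensity trend with robust settings gave 1 (miR-99b), while leaving out any aorta gave 0. The median log2 fold change of the 6 members was -0.35. It was -0.058 after centring on the mean, 0.16 relative to U87 and Y1, 0.0094 after quantile normalization and -0.45 to -0.17 with an aorta left out (Dicer_KO replicates 1 and 3). Relative to U87 and Y1, miR-10b, miR-125a-5p and miR-125b-5p were at 0.46, 0.33 and 0.43, after centring at 0.24, 0.11 and 0.21, and after quantile normalization at 0.32, 0.039 and 0.068. With 1 aorta left out, miR-10b ranged from -0.11 to 0.027, miR-125a-5p minus miR-125b-5p from -0.21 to 0.041, miR-10a minus the median assay from -0.23 to 0.0072 and miR-125a-3p minus the median assay from -0.22 to 0.044. miR-10a, miR-99b and miR-125a-3p kept their sign in all 19 alternatives. Their sign could change only with normalization or an aorta left out, since the other settings left their log2 fold changes as they were. miR-125a-3p was at -0.01 relative to U87 and Y1 and -0.02 after quantile normalization. The cause of these shifts was not tested.

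Over all assays, 7 calls became 26 at a Ct limit of 32, 17 with undetected wells missing, 13 with Ct 40 taken as measured, 22 among assays detected in all aortas, 30 with the intensity trend and 64 without Dicer_KO replicate 1. Other settings gave 5 without Dicer_WT replicate 1, 6 without Dicer_KO replicate 3, 6 without a detection filter and 7 to 9 under the other normalizations. Assay by assay, same-numbered aortas did not deviate together (correlations of -0.084, -0.097 and 0.043 over 377 assays). These correlations cannot show an offset shared by all assays of an aorta. The median assay fell from replicate 1 to 3 in both groups, at 0.11, 0.074 and -0.18 in Dicer_WT and -0.23, -0.36 and -0.71 in Dicer_KO aortas (log2, Dicer_WT mean at 0). Whether the numbers mark pairs was not settled, and they were not taken as pairs in the main test. With the replicate block 0 members and 7 assays were called, and miR-99b had an adjusted p of 0.0837 by limma. The block lowered the SE of miR-10a from 0.260 to 0.180 and that of miR-125a-3p from 0.314 to 0.185.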

Other observations

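The Hox genes hold further microRNAs besides miR-10a and miR-10b. miR-615-3p, from the Hoxc cluster, had a log2 difference, Dicer_KO minus Dicer_WT, of -0.93 ± 0.274 (SE, limma adjusted p = 0.108), with Ct 24.6 ± 0.614 in Dicer_KO and 23.4 ± 0.121 in Dicer_WT aortas (SD, n = 3 each). miR-196b, from the Hoxa cluster, had -0.62 ± 0.255 (adjusted p = 0.190). miR-615-5p, detected in 2 of 3 Dicer_KO and 3 of 3 Dicer_WT aortas, had -1.05 ± 0.373 (adjusted p = 0.148). In all 3 assays every Dicer_KO aorta lay below every Dicer_WT aorta, as in 32.6% of all assays tested. For miR-615-5p the gap was small, from -0.24 in Dicer_KO replicate 2 to -0.17 in Dicer_WT replicate 2 (log2, Dicer_WT mean at 0). Its Dicer_KO replicate 3 was the aorta without detection. None of these 3 assays passed the threshold.

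In the authors' deposited table, the fold of 515 of 517 microRNA assays equals the ratio of arithmetic mean relative quantities, Dicer_KO over Dicer_WT, within a relative tolerance of 1e-04. The exceptions are let-7b and miR-195. The deposited fold of miR-195 is 0.133 in the authors' deposited table, while its relative quantities average 0.801 in Dicer_KO and 1.01 in Dicer_WT aortas, a ratio of 0.796. For let-7b the authors' deposited table gives 0.349, while the averages are 0.671 in Dicer_KO and 1.00 in Dicer_WT aortas, a ratio of 0.668. Neither assay was called here (limma adjusted p = 0.274 for miR-195 and 0.225 for let-7b).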
